A study of Homo sapiens with 12 samples.

Results

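The YAP and TEAD pathway genes described here are the coactivators YAP1 and WWTR1, the DNA-binding factor TEAD1, the scaffold and kinase genes AMOTL1, AMOTL2, AJUBA and LATS2, and the target genes CYR61, CTGF and ANKRD1. They were taken by gene name from the table of counts, where CYR61 and CTGF carry the older names of CCN1 and CCN2. The 10 names matched 10 of the 58735 genes in the table, and 10 of 10 passed the filter on low counts that left 17829 genes for testing. RNA-Seq was performed on A549, an adherent line established from a human lung adenocarcinoma. Control cells and cells made to express the zinc-finger repressor GFI1 from a lentivirus, with an hPGK promoter and a GFP marker, were collected either attached or floating after 48 hours of forced suspension. Each of the 4 groups (attached control, attached GFI1, floating control and floating GFI1) had 3 libraries, and GFP-positive cells had been sorted for RNA-Seq. The study asked how GFI1 changes cells that keep or lose their substrate. The labels do not state whether control cells carried an empty vector, nor whether replicates were separate cultures, so p values measure the spread between these libraries.

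YAP1 and the protein of WWTR1, known as TAZ, are coactivators that cannot bind DNA themselves and act through TEAD factors. On a stiff substrate with a spread shape and a tensed actin cytoskeleton they reside in the nucleus and activate genes such as CYR61, CTGF and ANKRD1, whereas in detached or rounded cells LATS kinases phosphorylate them and they are held in the cytoplasm or degraded. Several of the genes they activate, such as AMOTL2, AJUBA and LATS2, encode proteins of the same pathway, so transcript levels of the pathway and activity of the pathway are separate quantities, and only the former was measured.

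The capitals in the promoter sequences of CTGF, ANKRD1 and YAP1 mark GGAATG, the core of the TEAD binding site. The first and second are shown because they are standard targets that changed in the comparisons given further on, and the third because it is the coactivator gene that fell most with GFI1. The RefSeq sequences are the 250 bases before the gene start on build GRCh38.p14, written on the strand of the gene, at chr6:131951373-131951622 (minus strand) for CTGF, chr10:90921088-90921337 (minus strand) for ANKRD1 and chr11:102110197-102110446 (plus strand) for YAP1.
CTGF promoter: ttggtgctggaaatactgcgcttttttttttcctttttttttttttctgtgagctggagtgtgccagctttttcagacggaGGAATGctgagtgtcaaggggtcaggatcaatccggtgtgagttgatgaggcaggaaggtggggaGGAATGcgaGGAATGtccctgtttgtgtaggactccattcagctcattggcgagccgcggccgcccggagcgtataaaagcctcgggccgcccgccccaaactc
ANKRD1 promoter: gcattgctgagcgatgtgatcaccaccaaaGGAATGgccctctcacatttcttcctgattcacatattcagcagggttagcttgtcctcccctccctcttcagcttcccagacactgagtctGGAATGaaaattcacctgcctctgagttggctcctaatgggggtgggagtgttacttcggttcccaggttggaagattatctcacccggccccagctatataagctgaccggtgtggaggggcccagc
YAP1 promoter: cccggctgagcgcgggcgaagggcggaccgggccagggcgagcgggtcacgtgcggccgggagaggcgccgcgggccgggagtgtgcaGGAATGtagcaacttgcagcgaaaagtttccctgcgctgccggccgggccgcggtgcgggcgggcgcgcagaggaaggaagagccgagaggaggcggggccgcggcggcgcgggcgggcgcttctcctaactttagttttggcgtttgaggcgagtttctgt

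The CTGF promoter held the motif 3 times, beginning 169, 104 and 95 bases before the start. The ANKRD1 promoter held it 2 times, at 220 and 128 bases, and the YAP1 promoter 1 time, at 162 bases. Of the 10 genes, 8 had at least 1 promoter in the RefSeq table and gave 11 windows, while CYR61 and TEAD1 were not analysed here. GGAATG or its reverse complement CATTCC lay in 5 of these 11, the other two being second start sites of AMOTL2 and AJUBA. On the same search of both strands, 11.9% of all 35116 promoter windows of this length held it. The AP-1 motif TGANTCA lay in the ANKRD1 window (6.57% of all windows), the GFI1 core AAATCA or TGATTT in the second AJUBA window (11.6% of all), and the CArG box of SRF in 0 of the 11 (1.16% of all). These are matches of letters in a window and not bound sites. The gene end that the deposited table gives for ANKRD1, 90921276, lies inside the window, since its annotation starts the minus-strand gene farther upstream than RefSeq does.

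Total counts ran from 17014188 to 20748677 per library. GFI1 itself, the check of the labels, had 4 to 12 counts in the control libraries and 5154 to 12796 in the GFI1 libraries. The first principal component of all genes tested (69.8% of the variance) separated GFI1 from control libraries and the second (12.7%) floating from attached ones, on which floating GFI1 replicate 3 lay at -13.6, apart from its fellows at -20.6 and -23.9. The summed level of 5 epithelial markers (EPCAM, KRT7, KRT8, KRT18 and CDH1) was 10385 to 10985 CPM (counts scaled to the size of the library) in attached control, 4220 to 4337 in attached GFI1, 6527 to 6936 in floating control and 3037 to 3407 in floating GFI1 libraries, with 0 of the 5 at 0. The 5 blood cell markers summed to at most 0.401 CPM, the 4 endothelial markers to 0.109 to 0.662 in control and 3.55 to 5.52 in GFI1 libraries, and the 5 fibroblast markers to between 5.77 and 14.4. CD3E and DCN had 0 counts in every library. Of the endothelial markers 2 could be tested, VWF and CDH5, and both were higher with GFI1 in either state. They had passed the low-count filter through the GFI1 libraries, so the filter itself favoured a rise, and their calls are no support for one. Epithelial markers thus moved with GFI1 and with suspension, and the summed endothelial level was higher with GFI1, beside the results below. The part of these markers in those results was not tested.

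**Figure D1:**
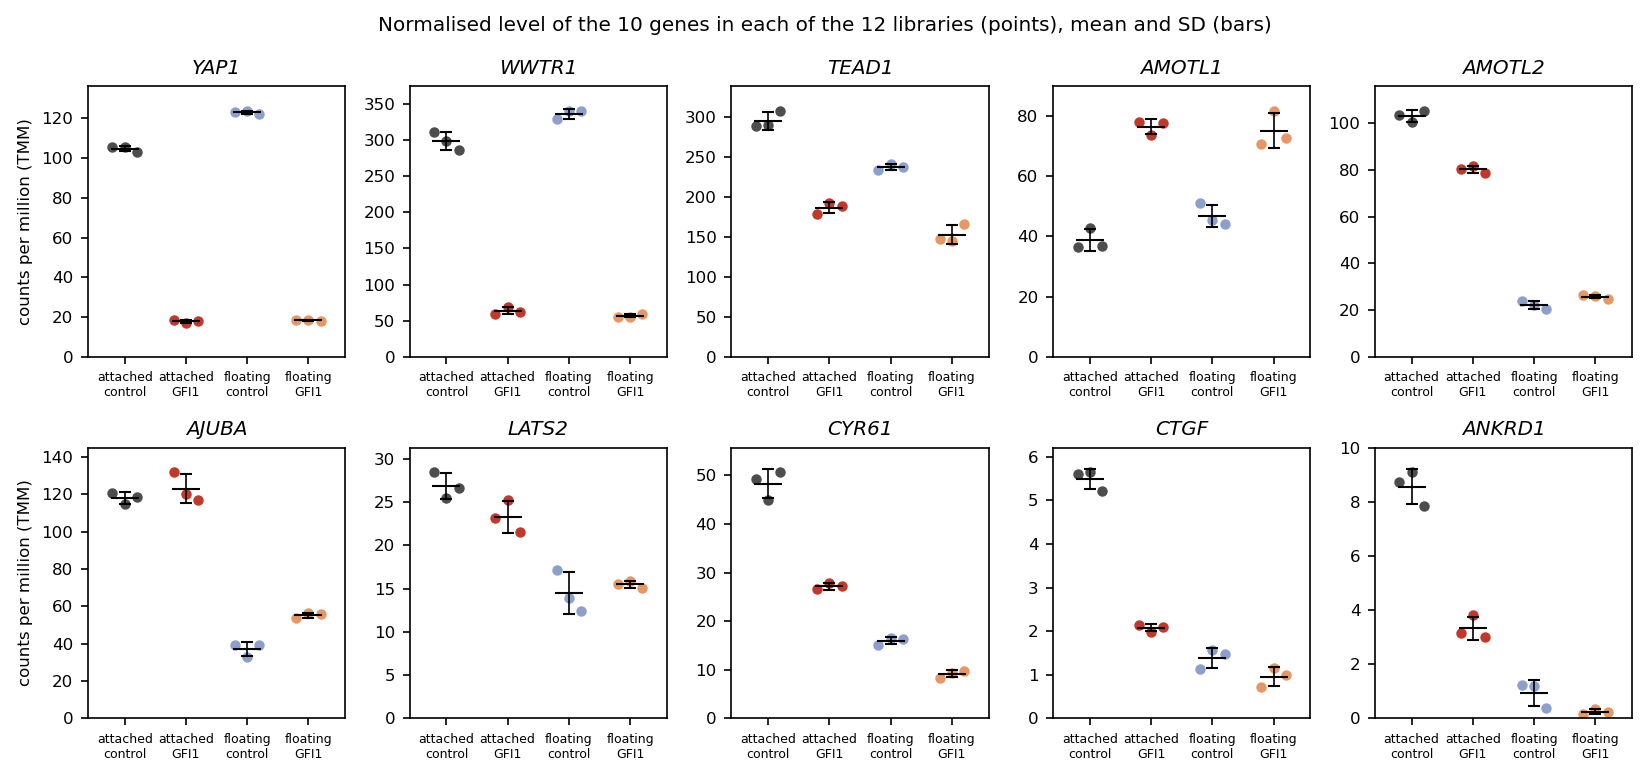
Normalised level of the 10 genes in CPM (vertical axis, from 0, a separate scale for each gene) in the 12 libraries, with the mean and SD of each group of 3 as black bars. YAP1 and WWTR1 separate by GFI1, AMOTL2, AJUBA and LATS2 by suspension, and the group means of CYR61, CTGF and ANKRD1 run from 48.3, 5.49 and 8.58 CPM in attached control to 9.17, 0.957 and 0.248 CPM in floating GFI1 libraries, with overlap of the 2 floating groups for CTGF.

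The comparison of GFI1 with control cells asked what GFI1 did to these genes on and off the dish. Both coactivators fell most. YAP1 stood at 105, 105 and 103 CPM in the attached control libraries and at 18.6, 17.0 and 18.1 CPM in the attached GFI1 libraries. In floating cells it stood at 123, 124 and 122 CPM without GFI1 and at 18.4, 18.6 and 18.0 CPM with it. The GFI1 and control libraries did not overlap in either state. The fall was 5.85-fold in attached cells (log2 change -2.55 ± 0.05 SE, adjusted p = 1.73e-23, edgeR quasi-likelihood test with Benjamini-Hochberg adjustment over all genes tested, as for every adjusted p here) and 6.71-fold in suspension (log2 change -2.75 ± 0.05, adjusted p = 3.14e-24).

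WWTR1, which encodes TAZ, stood at 311, 298 and 287 CPM in attached control libraries and at 59.4, 69.0 and 62.6 CPM in attached GFI1 libraries. The floating control libraries had 329, 340 and 341 CPM and the floating GFI1 libraries 55.3, 55.8 and 58.9 CPM. Again, the groups were far apart. The fall was 4.68-fold in attached cells (log2 change -2.23 ± 0.05, adjusted p = 3.56e-22) and 5.93-fold off the dish (log2 change -2.57 ± 0.05, adjusted p = 2.49e-23). Per kilobase of gene length, the YAP1 level was a median of 0.473 of the WWTR1 level in attached control libraries (range 0.453 to 0.481), 0.387 in attached GFI1 (0.330 to 0.418), 0.487 in floating control (0.479 to 0.500) and 0.444 in floating GFI1 libraries (0.408 to 0.445). The ratio was lower with GFI1 in either state, with no overlap between the ranges.

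TEAD1, the TEA domain factor through which they reach DNA, fell less. It had 288, 289 and 307 CPM in attached control and 178, 192 and 188 CPM in attached GFI1 libraries, and 234, 241 and 236 CPM in floating control against 147, 144 and 166 CPM in floating GFI1 libraries. No GFI1 library reached the level of a control library in the same state. The decrease was 1.58-fold in attached (log2 change -0.66 ± 0.05, adjusted p = 9.15e-12) and 1.56-fold off the dish (log2 change -0.64 ± 0.05, adjusted p = 2.61e-11). The other TEAD genes did not share 1 direction. TEAD4 fell by 0.71 (SE 0.06) and by 0.53 (SE 0.07) on the log2 scale in attached and floating cells, whereas TEAD3 rose by 0.65 ± 0.10 and 0.63 ± 0.10. TEAD2 rose by 0.20 ± 0.06 in floating cells and by 0.16 ± 0.06 in attached cells, where the call was lost without attached control replicate 1, without attached GFI1 replicate 1 and with no filter on low counts.

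The secreted matricellular protein gene CYR61 had 49.2, 45.0 and 50.7 CPM in attached control and 26.5, 27.9 and 27.1 CPM in attached GFI1 libraries. In suspension, the control libraries had 15.2, 16.5 and 16.3 CPM and the GFI1 libraries 8.38, 9.37 and 9.75 CPM. The groups did not overlap, and the fall was 1.77-fold in attached cells (log2 change -0.83 ± 0.07, adjusted p = 3.86e-11) and 1.74-fold off the dish (log2 change -0.80 ± 0.09, adjusted p = 1.17e-08).

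CTGF, a second matricellular gene of the CCN family, was scarcer, with 13 to 104 counts per library. Its level was 5.60, 5.65 and 5.22 CPM in attached control and 2.14, 1.98 and 2.10 CPM in attached GFI1 libraries, a 2.64-fold fall (log2 change -1.40 ± 0.18, adjusted p = 2.99e-07). In suspension it was 1.13, 1.57 and 1.47 CPM without GFI1 and 0.717, 1.16 and 0.995 CPM with it. These groups overlapped, since floating control replicate 1 lay below floating GFI1 replicate 2. The difference in floating cells missed the threshold (log2 change -0.53 ± 0.26, 95% interval -1.06 to -0.00, adjusted p = 0.0770), and passed it without floating control replicate 1 (log2 change -0.66, adjusted p = 0.0437).

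ANKRD1 encodes an ankyrin repeat protein of the nucleus and the sarcomere. It had 8.75, 9.12 and 7.86 CPM in attached control against 3.15, 3.83 and 3.00 CPM in attached GFI1 libraries, a 2.57-fold fall (log2 change -1.36 ± 0.18, adjusted p = 4.94e-07). The floating control libraries held 21, 20 and 7 counts of ANKRD1 (1.24, 1.20 and 0.397 CPM) and the floating GFI1 libraries 3, 6 and 5 counts (0.165, 0.331 and 0.249 CPM). The groups did not overlap, although control replicate 3 came close. The fall was 3.71-fold (log2 change -1.89 ± 0.43, adjusted p = 0.000514), and its size ran from -2.27 to -1.64 as libraries were left out in turn.

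The scaffold and kinase genes behaved differently. AMOTL1, an angiomotin-like scaffold that holds YAP at junctions, had 36.5, 42.9 and 36.7 CPM in attached control and 78.0, 73.5 and 77.7 CPM in attached GFI1 libraries. The floating control libraries had 51.0, 45.3 and 44.2 CPM and the floating GFI1 libraries 70.7, 81.7 and 72.7 CPM. AMOTL1 was the single gene of the 10 that rose with GFI1 in both states, by 1.97-fold in attached cells (log2 change 0.98 ± 0.07, adjusted p = 2.02e-12) and by 1.60-fold off the dish (log2 change 0.68 ± 0.07, adjusted p = 1.75e-09).

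AMOTL2, its paralog, turned direction between the states. The attached control libraries had 104, 101 and 105 CPM and the attached GFI1 libraries 80.4, 81.8 and 78.8 CPM, a 1.28-fold fall (log2 change -0.36 ± 0.05, adjusted p = 3.04e-07). The floating control libraries had 24.0, 22.2 and 20.6 CPM and the floating GFI1 libraries 26.5, 26.0 and 24.9 CPM, a 1.16-fold rise (log2 change 0.21 ± 0.06, adjusted p = 0.00453). The groups did not overlap in either state. Per kilobase, the level of AMOTL2 was a median of 4.77 times that of AMOTL1 in attached control, 1.73 times in attached GFI1, 0.789 times in floating control and 0.575 times in floating GFI1 libraries, so that AMOTL2 was the more abundant of the pair on the dish and AMOTL1 in suspension. AMOT, the third member of the family, had 1 to 11 counts and was not tested.

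AJUBA, a LIM domain scaffold that binds LATS kinases, had 121, 115 and 119 CPM in attached control and 132, 120 and 117 CPM in attached GFI1 libraries, which overlapped (log2 change 0.06 ± 0.05, 95% interval -0.05 to 0.17, adjusted p = 0.356). With scaling by library size only it was called higher there (log2 change 0.21, adjusted p = 0.00176). In suspension it had 39.1, 32.6 and 39.4 CPM without and 53.6, 56.2 and 55.7 CPM with GFI1, a 1.49-fold rise (log2 change 0.57 ± 0.06, adjusted p = 1.84e-08) between groups that did not overlap. Of its LIM domain paralogs, WTIP fell in attached cells (log2 change -0.91 ± 0.09) and showed 0.12 ± 0.11 in floating cells, where it did not pass but did under 1 of 15 alternatives, library size only. LIMD1 showed 0.03 ± 0.05 in attached cells, which passed with library size only, and 0.11 ± 0.05 in floating cells, a call that 8 of 15 alternatives lost.

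LATS2, the kinase that phosphorylates YAP and TAZ, had 28.5, 25.4 and 26.7 CPM in attached control and 23.2, 25.2 and 21.5 CPM in attached GFI1 libraries. The difference just passed the threshold (log2 change -0.20 ± 0.09, adjusted p = 0.0467) and was lost with DESeq2, a minimum of 10 counts in every library, and scaling by library size only, by RLE size factors or by upper quartiles. It was also lost without attached control replicate 1 (log2 change -0.16, adjusted p = 0.166) or 3 (-0.21, 0.0791) and without attached GFI1 replicate 1 (-0.20, 0.0943) or 3 (-0.15, 0.197). In floating cells it had 17.1, 14.0 and 12.4 CPM without GFI1 and 15.5, 15.9 and 15.1 CPM with it, which overlapped (log2 change 0.10 ± 0.10, 95% interval -0.11 to 0.30, adjusted p = 0.404). It was called higher there with library size only (log2 change 0.23, adjusted p = 0.0445) and without floating control replicate 1 (0.24, 0.0468). LATS1, the paralogous kinase, rose with GFI1 by 0.20 ± 0.06 in attached cells, a call lost without attached control replicate 1, and by 0.31 ± 0.07 in floating cells.

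In attached cells, 9 of the 10 genes passed the threshold, 1 higher and 8 lower with GFI1. Of all 17829 genes tested 62.3% passed, 29.5% higher and 32.8% lower. In floating cells, 8 of the 10 passed, 3 higher and 5 lower, against 60.4% of all genes, 29.3% higher and 31.1% lower. ANKRD1, among the 5, had passed the low-count filter through the attached groups. The median log2 change of the 10 genes was -0.74 in attached and -0.59 in floating cells, beside -0.01 and 0.01 over all genes. Groups did not overlap for 9 and 8 of the 10 genes, and for 67.0% and 64.4% of all genes. Most of all genes thus passed, and little can be read from the calls of these 10 alone. With library size only, the median of all genes moved to 0.14 for GFI1 in either state. Of the genes called, 61.5% were then higher in attached cells in place of 47.4%, and 61.4% in place of 48.5% off the dish. The direction of each of the 10 genes stayed the same under the 3 other scalings in both comparisons.

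**Figure D2:**
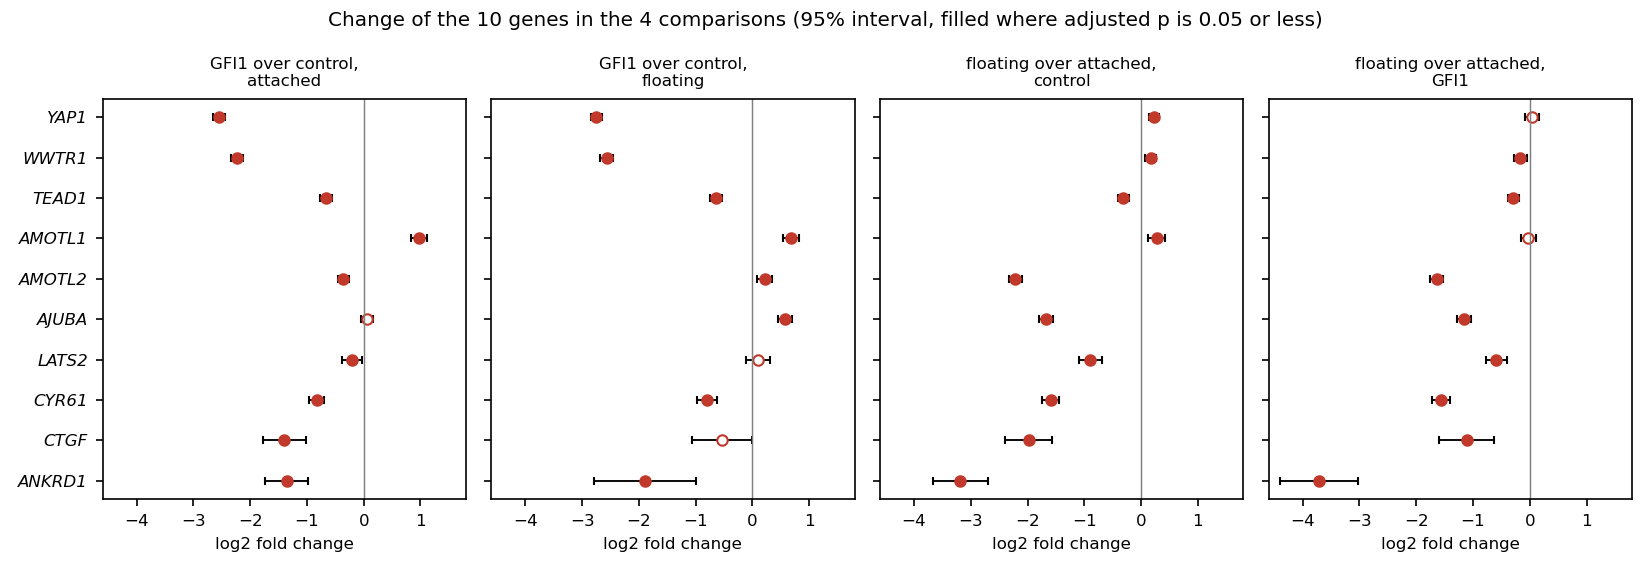
Log2 fold change of the 10 genes (horizontal axis) in the 4 comparisons between 2 groups of 3 libraries, with its 95% interval, filled where the adjusted p was 0.05 or less. YAP1 and WWTR1 lie between -2.75 and -2.23 for GFI1 and between -0.17 and 0.23 for suspension, whereas AMOTL2 and AJUBA lie between -2.21 and -1.16 for suspension and between -0.36 and 0.57 for GFI1.

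The comparison of floating with attached cells asked what the loss of the substrate did. In control cells the target genes and their feedback genes fell, whereas the coactivators rose slightly. ANKRD1 fell most, 9.07-fold (log2 change -3.18 ± 0.23, adjusted p = 4.09e-11), from the 8.75, 9.12 and 7.86 CPM of the attached to the 1.24, 1.20 and 0.397 CPM of the floating libraries. It had passed the low-count filter through the attached groups, so the filter itself favoured a fall with suspension, with or without GFI1. AMOTL2 followed at 4.64-fold (-2.21 ± 0.06, adjusted p = 6.26e-20), CTGF at 3.94-fold (-1.98 ± 0.20, adjusted p = 1.29e-08), AJUBA at 3.19-fold (-1.67 ± 0.06, adjusted p = 8.46e-17) and CYR61 at 3.02-fold (-1.59 ± 0.07, adjusted p = 4.27e-15). LATS2 fell 1.85-fold (-0.89 ± 0.09, adjusted p = 2.64e-08), and TEAD1 fell 1.24-fold (-0.31 ± 0.05, adjusted p = 8.80e-06). The 3 genes that rose were YAP1 by 1.17-fold (0.23 ± 0.04, adjusted p = 6.22e-05), WWTR1 by 1.13-fold (0.17 ± 0.05, adjusted p = 0.00419) and AMOTL1 by 1.21-fold (0.27 ± 0.07, adjusted p = 0.00270).

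With GFI1, suspension lowered 8 of the 10 genes and raised 0. ANKRD1 fell 13.1-fold (log2 change -3.71 ± 0.33, adjusted p = 3.08e-09), AMOTL2 3.11-fold (-1.64 ± 0.05, adjusted p = 5.43e-17), CYR61 2.96-fold (-1.57 ± 0.08, adjusted p = 1.10e-13), AJUBA 2.23-fold (-1.16 ± 0.06, adjusted p = 6.26e-14) and CTGF 2.16-fold (-1.11 ± 0.23, adjusted p = 0.000627). LATS2 fell 1.50-fold (-0.59 ± 0.09, adjusted p = 1.72e-05), and TEAD1 fell 1.22-fold (-0.29 ± 0.05, adjusted p = 5.29e-05). WWTR1 fell 1.12-fold (-0.17 ± 0.05, adjusted p = 0.0182), which was lost without attached GFI1 replicate 2 (-0.10, adjusted p = 0.217) and without floating GFI1 replicate 1 (-0.16, adjusted p = 0.0561). YAP1 (0.03 ± 0.06, 95% interval -0.09 to 0.16, adjusted p = 0.725) and AMOTL1 (-0.03 ± 0.06, 95% interval -0.15 to 0.10, adjusted p = 0.808) did not pass. The GFI1 transcript was itself 1.93-fold higher in floating than in attached GFI1 cells (545, 706 and 430 against 290, 294 and 286 CPM), so the states differed in GFI1 level as well, and the part of this in the suspension effect was not tested.

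In control cells 10 of the 10 genes passed, 3 higher and 7 lower, where 40.1% of all genes passed, 19.6% higher and 20.5% lower. In GFI1 cells 8 passed, 0 higher and 8 lower, where 31.3% of all genes passed, 15.0% higher and 16.3% lower. ANKRD1 is among the lower genes in both counts, and there its call is no support, since the filter favoured its fall. The median log2 change of the 10 genes was -1.24 and -0.85, beside 0.01 and 0.00 over all genes. The attached and floating groups did not overlap for 10 and 8 of the 10 genes, and for 49.9% and 41.4% of all genes. In these bulk libraries fewer cells that express a gene cannot be told apart from less RNA of it per cell.

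The interaction compares the suspension effect in GFI1 cells with that in control cells. It passed the threshold for 4 of the 10 genes, 2 higher and 2 lower, where 10.8% of all genes passed, 4.76% higher and 6.01% lower. Suspension lowered AMOTL2 less in GFI1 than in control cells (difference of log2 changes 0.58 ± 0.08, adjusted p = 1.27e-05), and AJUBA likewise (0.52 ± 0.08, adjusted p = 0.000115). WWTR1 rose with suspension in control cells and fell in GFI1 cells (difference -0.34 ± 0.07, adjusted p = 0.00196). AMOTL1 rose in control cells, and its change in GFI1 cells did not pass (difference -0.30 ± 0.09, adjusted p = 0.0395). The AMOTL1 call was lost in 8 of 12 leave-outs, with adjusted p from 0.0523 to 0.150, namely those of replicates 1 and 3 of the attached control, attached GFI1 and floating GFI1 libraries and replicates 1 and 2 of the floating control libraries.

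CYR61 fell by nearly equal amounts in both (difference 0.03 ± 0.11, 95% interval -0.20 to 0.25, adjusted p = 0.919), and so did TEAD1 (0.02 ± 0.07, 95% interval -0.12 to 0.17, adjusted p = 0.888). For CTGF (0.87 ± 0.32, 95% interval 0.21 to 1.53, adjusted p = 0.0865), ANKRD1 (-0.53 ± 0.48, 95% interval -1.51 to 0.45, adjusted p = 0.562) and YAP1 (-0.20 ± 0.07, 95% interval -0.35 to -0.05, adjusted p = 0.0847) a difference did not pass the threshold. The same held for LATS2 (0.30 ± 0.13, 95% interval 0.03 to 0.57, adjusted p = 0.163), which passed without floating control replicate 1 (0.44, adjusted p = 0.0266).

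**Figure D3:**
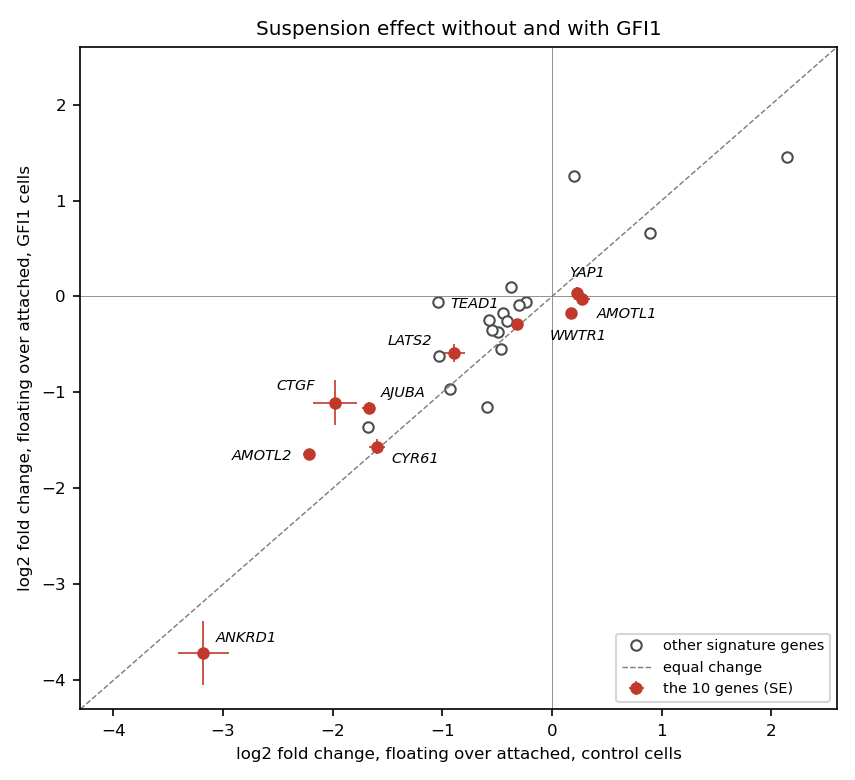
Log2 fold change of floating over attached cells in control (horizontal axis) and GFI1 cells (vertical axis) for the 10 genes (red, bars are SE) and the other genes of the 22-gene YAP/TAZ target signature (open), with the line of equal change. CYR61 (-1.59 and -1.57) and TEAD1 (-0.31 and -0.29) lie next to the line, while AMOTL2 (-2.21 and -1.64) and AJUBA (-1.67 and -1.16) lie above it.

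Levels can be compared between genes per kilobase of the gene length in the table. In attached control libraries the order ran from WWTR1 (35.5 ± 1.45 CPM per kb, SD, n = 3) over TEAD1 (28.7 ± 1.07), AJUBA (19.8 ± 0.512), CYR61 (19.7 ± 1.21), AMOTL2 (17.3 ± 0.422), YAP1 (16.6 ± 0.204), LATS2 (4.81 ± 0.275), ANKRD1 (4.34 ± 0.328) and AMOTL1 (3.86 ± 0.362) to CTGF (2.35 ± 0.0994). The ranges of AJUBA and CYR61, of LATS2 and ANKRD1, and of ANKRD1 and AMOTL1 overlapped. In attached GFI1 libraries AJUBA (20.6 ± 1.31 CPM per kb) and TEAD1 (18.1 ± 0.667) led, WWTR1 (7.57 ± 0.579) had come to overlap AMOTL1 (7.61 ± 0.248), and YAP1 was at 2.85 ± 0.127. In floating control libraries WWTR1 (40.0 ± 0.799), TEAD1 (23.1 ± 0.345) and YAP1 (19.5 ± 0.130) held the first places, far above CYR61 (6.51 ± 0.287) and AJUBA (6.19 ± 0.640), which overlapped. In floating GFI1 libraries TEAD1 (14.8 ± 1.15) stood first, and CTGF (0.409 ± 0.0953) and ANKRD1 (0.125 ± 0.0418) last. YAP1 lay below CYR61 in attached control, attached GFI1 and floating GFI1 libraries and above it in floating control libraries.

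The pathway around the 10 genes was followed through lists, most of which share genes with them. The share of all genes that passed, for reading these counts, was 62.3% and 60.4% for GFI1 in attached and floating cells and 40.1% and 31.3% for suspension in control and GFI1 cells. Of the 22 genes of a YAP/TAZ target signature, which includes CYR61, CTGF, ANKRD1, AMOTL2 and LATS2, suspension lowered 19 and raised 2 in control cells (median log2 change -0.56) and lowered 14 and raised 3 in GFI1 cells (median -0.36). The exceptions were led by IGFBP3, the gene of a binding protein of insulin-like growth factors, which rose 4.42-fold and 2.73-fold, and NT5E, the ecto-nucleotidase CD73, which rose 1.86-fold and 1.59-fold. GFI1 lowered 15 and raised 5 of the 22 in attached cells (median -0.50) and lowered 10 and raised 8 in floating cells (median -0.30, from -0.38 to -0.042 over the alternatives and -0.17 with library size only). Without the 5 genes already described, suspension lowered 14 and raised 2 of the other 17 in control cells and lowered 9 and raised 3 in GFI1 cells, and GFI1 lowered 10 and raised 5 in attached cells (median -0.38) and lowered 8 and raised 7 in floating cells (median -0.06). The steepest falls with GFI1 were those of CCDC80, a secreted matrix protein gene (109 ± 1.59 to 8.57 ± 0.840 CPM in attached cells, SD, n = 3, log2 change -3.66 ± 0.07), and NT5E (62.7 ± 2.79 to 4.95 ± 0.762 CPM, -3.67 ± 0.09). GADD45A, a growth arrest and DNA damage gene, rose from 34.6 ± 2.56 to 81.4 ± 1.04 CPM (1.24 ± 0.06).

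The TEAD factors and cofactors gave 8 tested genes of 10, since VGLL1 and VGLL2 had 0 counts. With GFI1, 3 rose and 5 fell in either state. Without YAP1, WWTR1 and TEAD1, which are among the falls, 3 rose and 2 fell, with median log2 changes of 0.16 in attached and 0.19 in floating cells. VGLL4, a cofactor that represses TEAD targets, rose by 0.89 ± 0.06 on the log2 scale in attached cells (27.4 ± 1.34 to 50.8 ± 0.844 CPM) and by 0.19 ± 0.06 in floating cells, the last of which was lost without floating control replicate 3. VGLL3, a cofactor named here after its values were seen, fell 8.65-fold in attached cells (-3.11 ± 0.08) and 8.99-fold in floating cells (-3.17 ± 0.09). Suspension raised 3 and lowered 3 of the 8 in control cells and raised 0 and lowered 5 in GFI1 cells.

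Among 15 genes of the Hippo kinase cassette, the kinases and adaptors that act on YAP and TAZ, GFI1 raised 4 and lowered 6 in attached cells and raised 6 and lowered 5 in floating cells, where 62.3% and 60.4% of all genes passed. With library size only, these counts became 6 and 4 and, off the dish, 8 and 4. Suspension raised 1 and lowered 7 in control cells and raised 4 and lowered 4 in GFI1 cells. Without LATS2, which belongs to this list, GFI1 lowered 5 of 14 genes in either state. Suspension then lowered 6 in control cells and 3 in GFI1 cells, and the rises stayed the same. WWC1, the adaptor also called KIBRA, changed most, from 237 ± 5.18 CPM in attached control to 48.6 ± 1.62 in attached GFI1, 95.8 ± 4.27 in floating control and 14.5 ± 1.38 in floating GFI1 libraries (GFI1 effects -2.28 ± 0.05 and -2.72 ± 0.06, suspension effects -1.30 ± 0.05 and -1.74 ± 0.06). FRMD6 fell with GFI1 by 0.95 (SE 0.10) and by 0.75 (SE 0.10) on the log2 scale, whereas the kinase gene TAOK3 rose by 0.72 ± 0.06 and 0.83 ± 0.06 and the kinase activator gene MOB1B by 0.47 ± 0.07 and 0.54 ± 0.07. The kinases STK3 and STK4, named after their values were seen, showed -0.13 ± 0.07 and -0.10 ± 0.05 with GFI1 in attached cells, and neither passed.

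Of 15 junction and scaffold regulators 14 were tested. GFI1 raised 3 and lowered 6 in attached cells and raised 6 and lowered 3 in floating cells (5 and 4, and 8 and 3, with library size only), where again 62.3% and 60.4% of all genes passed. Suspension raised 3 and lowered 6 in control cells and raised 0 and lowered 5 in GFI1 cells. AMOTL1, AMOTL2 and AJUBA belong to this list. Without them, GFI1 raised 2 and lowered 5 of 11 tested genes in attached cells and raised 3 and lowered 3 in floating cells. Suspension then raised 2 and lowered 4 in control cells and raised 0 and lowered 3 in GFI1 cells. FAT4, a giant cadherin upstream of the cassette, rose 3.97-fold in attached cells (8.39 ± 0.813 to 33.3 ± 2.25 CPM) and 3.89-fold in floating cells with GFI1. Of the CCN family, to which CYR61 and CTGF belong, NOV rose with suspension in control cells (2.31 ± 0.31, from 6 to 13 up to 37 to 48 counts) and in GFI1 cells (1.28, adjusted p = 0.000406). With GFI1, NOV rose in attached cells (1.13, adjusted p = 0.00696) and did not pass in floating cells (0.10, adjusted p = 0.723). WISP2 rose with GFI1 and with suspension (4.80 ± 0.442, 7.52 ± 1.13, 9.14 ± 0.629 and 19.6 ± 6.52 CPM in attached control, attached GFI1, floating control and floating GFI1 libraries), although the GFI1 call in attached cells was lost with robust empirical Bayes. WISP1 had at most 29 and WISP3 at most 4 counts in a library.

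Genes controlled by SRF with its actin-sensing cofactors of the MRTF family are known to follow actin dynamics, as YAP and TAZ do, and gave a set for comparison, of which 14 of 15 were tested. Suspension raised 2 and lowered 10 in control cells and raised 4 and lowered 7 in GFI1 cells, where 40.1% and 31.3% of all genes passed. GFI1 raised 3 and lowered 10 in attached cells and raised 4 and lowered 8 in floating cells, where 62.3% and 60.4% did. TPM1, a tropomyosin of actin filaments, went from 319 ± 3.52 CPM in attached control to 190 ± 1.04 in attached GFI1, 111 ± 1.92 in floating control and 66.8 ± 1.87 in floating GFI1 libraries. TPM2 fell with GFI1 (-1.76 ± 0.05 and -0.98 ± 0.05), and suspension lowered it in control cells (-0.44 ± 0.05) and raised it in GFI1 cells (0.34 ± 0.05). ZYX, the gene of the focal adhesion protein zyxin, rose with GFI1 in floating cells (0.52 ± 0.08) and fell with suspension in control cells (-0.67 ± 0.08). Its suspension effect in GFI1 cells was -0.17 ± 0.07 and did not pass, but did with no filter on low counts and without floating GFI1 replicate 2. With GFI1 in attached cells it showed 0.02 ± 0.07, which passed with library size only.

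**Figure D4:**
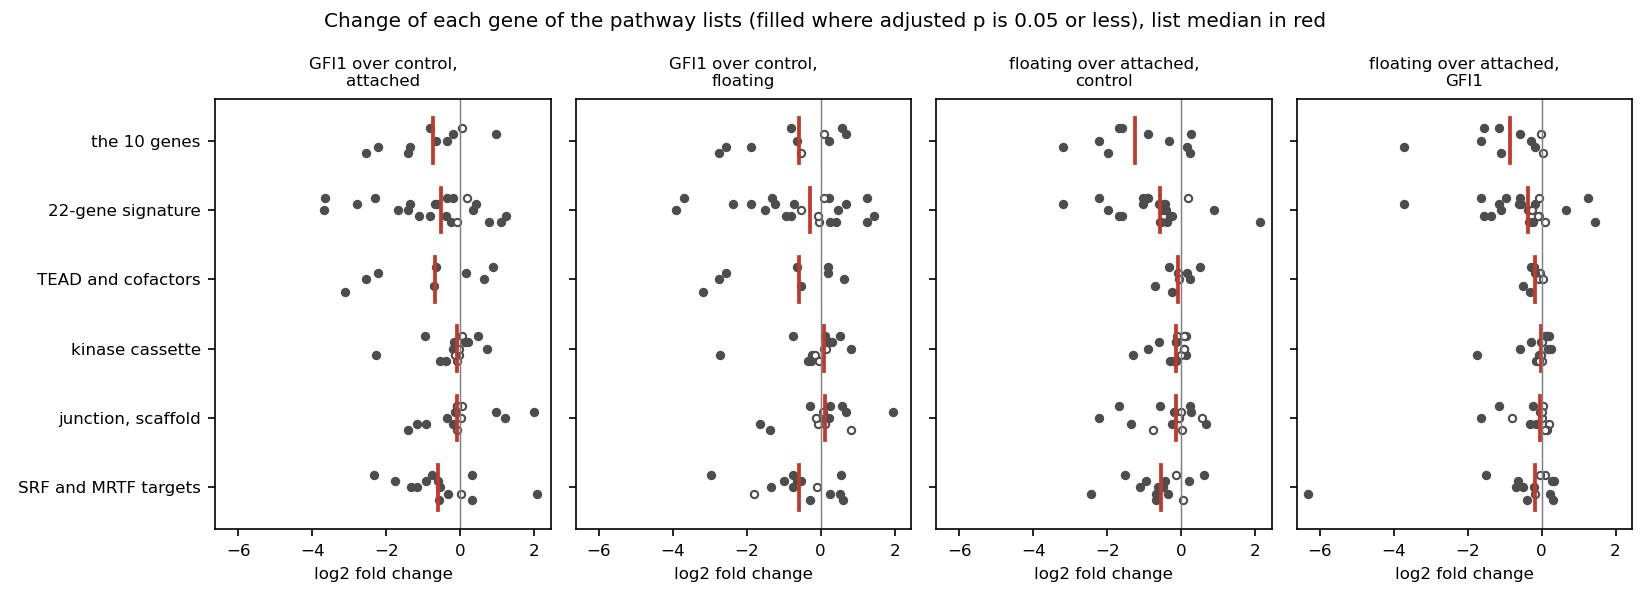
Log2 fold change (horizontal axis) of every tested gene of the 10 genes and of 5 lists, 4 of which share genes with them, in the 4 comparisons, filled where the adjusted p was 0.05 or less, with the list median as a red bar. The signature and the SRF and MRTF targets have medians of -0.56 and -0.56 for suspension in control cells, whereas the kinase cassette and the junction and scaffold genes have -0.13 and -0.13. The point at -6.31 is CNN1, with 34 to 41 counts in attached and 0 to 1 in floating GFI1 libraries, and is no measure of size.

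The genes whose log2 CPM followed each of the 10 most closely over the 12 libraries were taken as a description, with the libraries shared by every pair and the 4 groups setting most of the variation. WWTR1 was most like ATP8B1 (Pearson r = 0.9996), SOCS6 and AKR1B10, and YAP1 most like SLC7A2 (r = 0.999), PLP2 and UHRF1BP1L. CYR61 was most like TPM1 (r = 0.996), ATAD2 and DEPDC1B. CTGF was most like PCLAF (r = 0.985), RFWD3 and ZNF367, and ANKRD1 most like MMS22L (r = 0.985), TOMM5 and NUP188. AMOTL1 went with ATP2A3 (r = 0.988), SCUBE1 and MYO1E, and AMOTL2 with COTL1 (r = 0.992), SUSD2 and DPP9. AJUBA went with FSTL1 (r = 0.990), KRT80 and LASP1, LATS2 with GTF3C4 (r = 0.976), FSCN1 and SHROOM3, and TEAD1 with CEP55 (r = 0.996), PRPS1 and ADCY3.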

How the data were processed

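RNA-Seq libraries of poly-A selected RNA from 4 groups of 3 were compared. The deposited values are raw counts per gene made by the authors. The methods of the study name Hisat2 and featureCounts on GRCh38, the submitters' processing notes name Bowtie2 and HTSeq, and the annotation release and strand setting are not given in the sources used here. Overlapping genes had at most 28 counts in a library, against 1002 or more for the gene concerned, WWTR1.

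The model was fitted with edgeR 4.0.16 under R 4.3.3. Low genes were removed with filterByExpr (minimum count 10, minimum total count 15), and libraries were scaled by TMM. One quasi-likelihood model of 4 group means (biological coefficient of variation 4.86%) gave 5 contrasts, 2 for GFI1, 2 for suspension and the interaction. P values were two-sided, adjusted by Benjamini-Hochberg over the 17829 genes tested, with 0.05 or less as the threshold. CPM and CPM per kilobase use TMM scaling and the gene length of the deposited table, and log2 CPM for the correlations used a prior count of 2. The code was tested on simulated data.

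The genes and lists were chosen with earlier results of these data known. Named are the 10 genes, GFI1, per list the 2 genes of lowest adjusted p, separately for rises and falls, in any comparison between 2 groups, paralogs of the 10, and for each of the 10 the 3 protein-coding genes with the highest Pearson r. Others are said to be chosen after their values were seen. Replicates of the same number did not deviate together (r from -0.031 to 0.031 over 18 pairs), so the main model held no pairing by number. This cannot show whether samples of the same number were prepared together. Alternatives were DESeq2 1.42.0, 3 other scalings, other filters, a fit of the 2 groups alone, robust empirical Bayes, a replicate block, a fold of 2, and leaving out each library. The alternatives for the lists and for the other named genes were added after seeing the data.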

Additional observations from a re-analysis of the deposited data

Results flagged for a closer look

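The suspension effect differed between GFI1 and control cells, by the interaction test of edgeR with Benjamini-Hochberg adjustment, for 4 of the 10 genes and for 6 of the other named genes. Of all genes tested 10.8% passed. Apart from paralogs of the 10, the other genes were named for a low adjusted p in these same libraries. Their number is therefore no measure of how common such a difference is. Given as the log2 suspension effect in GFI1 cells minus that in control cells, the values were -0.30 for AMOTL1, 0.58 for AMOTL2, 0.52 for AJUBA and -0.34 for WWTR1. Of the other genes, WTIP, a LIM domain paralog of AJUBA, had 1.03 (SE 0.14, adjusted p = 1.28e-05), TPM2 0.78 (SE 0.07, adjusted p = 2.54e-08) and ZYX 0.50 (SE 0.11, adjusted p = 0.00229, lost with robust empirical Bayes). VGLL4 had -0.70 (SE 0.08, adjusted p = 2.79e-06), IGFBP3 -0.70 (SE 0.12, adjusted p = 0.000190) and WWC1 -0.43 (SE 0.08, adjusted p = 0.000545). GFI1 transcript was higher in floating than in attached GFI1 cells, and its part in these differences was not tested.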

How the results depend on the processing

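Over 794 recomputed values of the 10 genes, 761 kept their direction and their side of the threshold, 19 lost the call, 5 gained one and 9 changed sign. The changes of sign were in values close to 0 that had not passed, with leave-out ranges of -0.0072 to 0.24 for LATS2 with GFI1 in floating cells, -0.10 to 0.0037 for AMOTL1 with suspension in GFI1 cells, and -0.019 to 0.080 for CYR61 and -0.041 to 0.054 for TEAD1 in the interaction. A change of at least 2-fold as well left 4 and 3 of the 10 genes for GFI1 in attached and floating cells. Of all 17829 genes tested, this rule left 3247 and 3078. For suspension in control and GFI1 cells it left 5 and 5 of the 10 genes, and 909 and 500 of all genes. For the interaction it left 0 of the 10 genes, of which 7 had an unadjusted p below 0.05, and 241 of all genes. Over all other alternatives the counts of the 10 genes past the threshold ran from 7 to 9, 7 to 10, 9 to 10, 7 to 8 and 3 to 4. With a replicate block the counts were 9, 8, 10, 8 and 4 and no call of the 10 genes changed, for example YAP1 at -2.55 in attached cells. Without floating GFI1 replicate 3, which lay apart, 8, 8 and 3 of the 10 genes passed for GFI1 in floating cells, suspension in GFI1 cells and the interaction, and 8 rose and 10 fell of the 22-gene signature in the first and 4 and 14 in the second. Over the alternatives, added after seeing the data, suspension in GFI1 cells raised 0 to 4 genes of the kinase cassette and lowered 3 to 5 junction and scaffold genes. ANKRD1 could not be tested with a minimum of 10 counts in every library. For GFI1 in floating cells it was also not tested in a fit of the 2 floating groups alone. Depth limits ANKRD1 in floating GFI1 libraries (3 to 6 counts) and CTGF (13 to 21 counts) most.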

Other observations

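Other genes of the lists also differed in their response to suspension between GFI1 and control cells (interaction, edgeR, against 10.8% of all genes). Of the 14 tested SRF and MRTF targets, 7 had a positive difference past the threshold and 0 a negative one (6 to 7 and 0 to 2 over the alternatives). Named after their values were seen, SRF itself had 0.56 ± 0.08 on the log2 scale (SE), the vinculin gene VCL 0.44 ± 0.06, the filamin gene FLNA 0.41 ± 0.06 and ACTB, cytoplasmic beta-actin, 0.30 ± 0.06. SRF fell with suspension in control cells (-0.35 ± 0.05) and rose in GFI1 cells (0.22 ± 0.05).

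Of the 22-gene YAP/TAZ signature, 7 genes had a positive and 2 a negative difference, with 3 to 9 positive over the alternatives. Also named after their values were seen, AXL, a receptor tyrosine kinase gene, was among the former (0.47 ± 0.14), and TGFB2, a TGF-beta ligand gene (0.41 ± 0.13), lost its call in 12 of 20 alternatives. AXL stood at 169, 288, 131 and 309 CPM in attached control, attached GFI1, floating control and floating GFI1 libraries, on average over 3 libraries each, and so was higher with GFI1 in both states (0.77 ± 0.10 and 1.24 ± 0.10). The floating GFI1 libraries spread widely, from 235 to 391 CPM (SD 78.5). AXL was not followed on its own through the alternatives.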
